A study of Mus musculus with 40 samples.

Results

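Single mouse embryos injected with an siRNA against Rif1 did not all lose the transcript to the same extent, and the embryos that kept the least Rif1 were compared here with those that kept the most. Of the 40 embryos of the series, 25 had received the Rif1 siRNA (siRif1), 13 collected at the 4-cell stage and 12 at the 8-cell stage. They were ranked within each stage by Rif1 read counts per 1e6 mouse gene counts (CPM), and the groups were chosen by that value alone, the 6 lowest against the 6 highest. The middle 4-cell embryo, number 5, was not used in these comparisons, so that 24 embryos were. All zygotes came from (C57BL/6J x CBA) mice crossed to DBA mice. The number of the DBA substrain in the labels counts upward from sample to sample and is not printed here. Zygotes had been injected 17 to 18 hours after hCG, the hormone that induces ovulation, with 20 μM of 1 siRif1 reagent or 20 μM of a control siRNA (siCon), and kept in KSOM medium at 37 °C under 5% CO2. The 4-cell embryos were taken 63 hours and the 8-cell embryos 70 hours after hCG. The control groups held 7 embryos at the 4-cell and 8 at the 8-cell stage. Each library was made from 1 embryo by SMART-seq2, which copies polyadenylated RNA into full-length cDNA without strand or molecule tags, with ERCC spike-in RNA in the lysis buffer. No label ties an embryo to a litter or an injection day, and p-values measure the spread between these embryos.

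Rif1 is a large chromatin-bound protein. It brings protein phosphatase 1 to replication origins, where it counteracts the DDK kinase and so sets when late origins fire. It also acts downstream of 53BP1 in the choice of pathway for repair of DNA breaks, and has been tied to the silencing of repeats and of 2-cell stage genes in mouse embryonic stem cells. In the mouse, embryonic transcription begins in earnest at the 2-cell stage and maternal RNA is cleared over the next divisions. An siRNA guides the cleavage of its target mRNA.

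Rif1 (ENSMUSG00000036202, chromosome 2, 52072832 to 52122383, GRCm38) chose the groups, and its levels are given as a description without a test. At the 4-cell stage the lower-Rif1 embryos held 95.6, 105, 109, 123, 125 and 135 CPM (embryos 13, 11, 3, 1, 8 and 12). The middle embryo held 149 CPM, and the higher-Rif1 embryos held 185, 206, 241, 271, 349 and 460 CPM (embryos 9, 4, 2, 6, 7 and 10). At the 8-cell stage the lower-Rif1 embryos held 78.1, 111, 113, 128, 137 and 172 CPM (embryos 9, 6, 2, 4, 5 and 12). The higher-Rif1 embryos held 213, 219, 238, 284, 286 and 333 CPM (embryos 8, 10, 3, 11, 1 and 7). The embryos nearest the boundary thus held 135 and 185 CPM at the 4-cell stage and 172 and 213 CPM at the 8-cell stage.

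The means differed 2.47-fold between the groups at the 4-cell stage and 2.13-fold at the 8-cell stage. Control embryos held 332 to 620 CPM at the 4-cell stage and 228 to 342 CPM at the 8-cell stage. All 6 lower-Rif1 embryos of each stage lay below every control of that stage, at 24.4% and 41.8% of the control mean. Of the higher-Rif1 embryos, 4 of 6 at the 4-cell stage and 2 of 6 at the 8-cell stage lay below every control, and their means were 60.3% and 88.9% of the control mean. The higher-Rif1 group at the 8-cell stage therefore held mostly embryos within the control range. An embryo is a bulk sample, so fewer cells with the transcript and less transcript in each cell cannot be told apart.

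**Figure D1:**
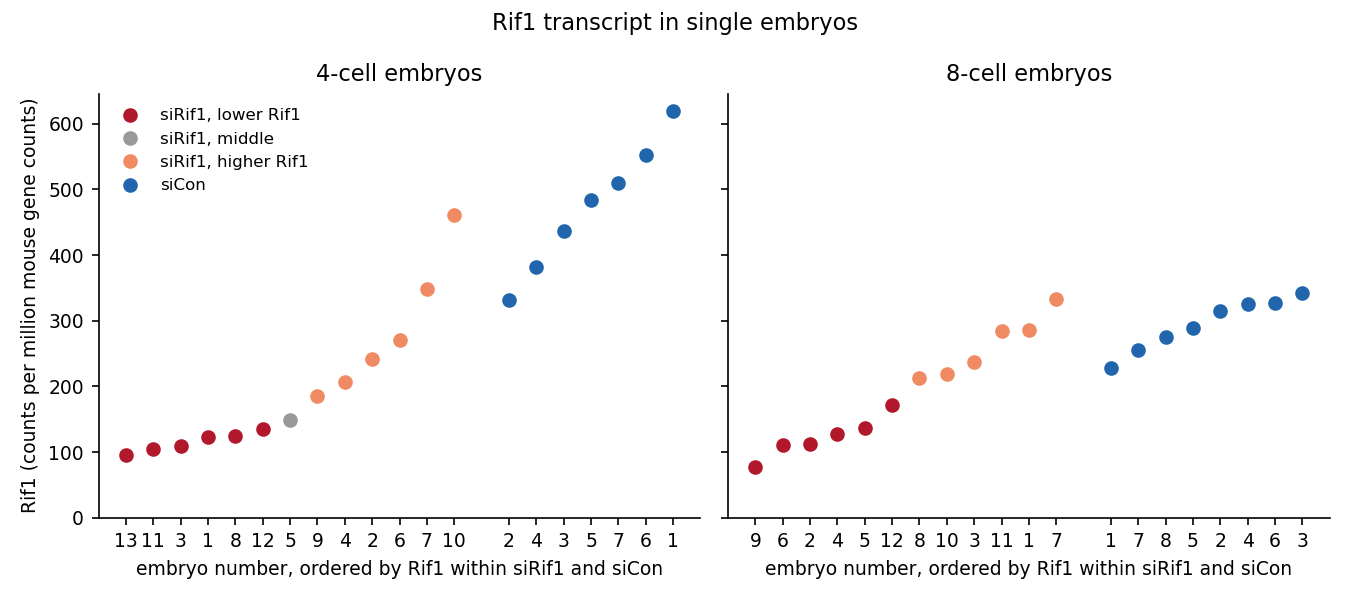
Rif1 CPM (vertical axis) for each embryo, 1 point per embryo, ordered by Rif1 within siRif1 and within siCon embryos of each stage. The 6 lower-Rif1 embryos of each stage lie below all controls, while 4 of 6 higher-Rif1 embryos at the 8-cell stage lie among them.

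Mouse gene counts ran from 1479657 to 8890551 over the 24 embryos compared, and the middle embryo had 704863. An entry annotated within ribosomal RNA took between 12.1% and 56.1% of the mouse counts of siRif1 embryos. Leaving it out, or scaling by the trimmed mean of M values (TMM), put the same 24 embryos in the same groups. Ranking by the ratio of Rif1 to ERCC counts kept 4 of 6 embryos in each group at the 4-cell stage and 5 of 6 at the 8-cell stage. Of 16 library measures, 8 at each stage, 0 differed between lower-Rif1 and higher-Rif1 embryos after Benjamini-Hochberg adjustment (exact two-sided permutation tests, 6 against 6, of which the smallest possible p is 0.00216). The smallest p belonged to the stage score at the 8-cell stage. This score subtracts the mean log2 CPM of 1068 genes that fell from the 4-cell to the 8-cell stage in controls from that of 546 genes that rose. It was 1.97 ± 0.0943 in lower-Rif1 and 1.73 ± 0.231 in higher-Rif1 8-cell embryos (SD, n = 6 each; exact permutation p = 0.0130, adjusted p = 0.208). In 4-cell embryos it was -0.36 ± 0.256 and -0.57 ± 0.297 (exact permutation p = 0.216, adjusted p = 0.554). The log2 ratio of mouse to ERCC counts was 5.56 ± 0.512 against 5.98 ± 0.476 at the 8-cell stage (exact permutation p = 0.184) and 5.06 ± 0.618 against 5.02 ± 0.516 at the 4-cell stage (p = 0.920 in the same exact test).

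**Figure D2:**
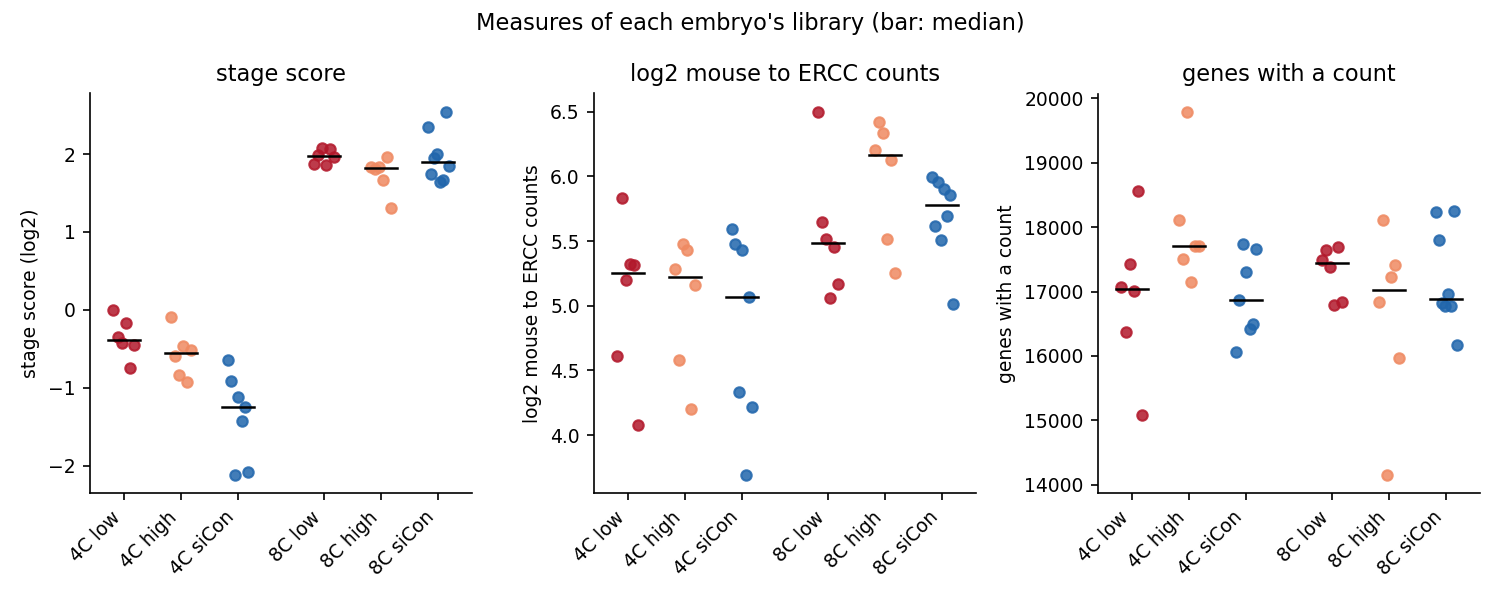
Stage score on a log2 scale, log2 ratio of mouse to ERCC counts, and number of genes with a count (vertical axes), 1 point per embryo with the median as a bar, for lower-Rif1 (low), higher-Rif1 (high) and siCon embryos of the 4-cell (4C) and 8-cell (8C) stages. The groups overlap in every panel, and the 8-cell lower-Rif1 embryos have stage scores from 1.86 to 2.08 against 1.30 to 1.96 in the higher-Rif1 embryos.

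The first comparison asked which transcripts differed between lower-Rif1 and higher-Rif1 embryos of both stages, with stage in the model and Rif1 itself left out. The edgeR quasi-likelihood test called 0 of 11141 genes (0.00%) at an adjusted p below 0.05, with 601 genes (5.39%) below an unadjusted p of 0.05. DESeq2 called 4 genes and limma-voom 0. With Rif1 ranked by its ratio to ERCC counts, which changed the make-up of the groups, edgeR called 86 genes. Of these, 53 were higher and 33 lower in the embryos with the smaller ratio. That ratio is Rif1 CPM multiplied by the mouse to ERCC ratio, so this ranking also sorts embryos by the mouse to ERCC ratio. At the 4-cell stage the log2 mouse to ERCC ratio then differed by -0.75 (lower minus higher), against 0.04 in the CPM-ranked groups. In the CPM-ranked groups the median log2 fold change of all genes was -0.00052, with 49.9% of genes above 0. The genes with the smallest p in the CPM-ranked groups are given below as values. Each fold change is a log2 difference of lower-Rif1 minus higher-Rif1 embryos, with its standard error (SE), and each level is a TMM-scaled CPM value.

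H2afx encodes the histone variant H2A.X, which is phosphorylated in the chromatin around DNA breaks (ENSMUSG00000049932, chromosome 9, 44334694 to 44336077). The entry annotated opposite to it had no counts. In 4-cell embryos its level was 8.08 to 53.9 CPM (median 32.7) in lower-Rif1 embryos and 16.6 to 164 CPM (median 68.6) in higher-Rif1 embryos. The groups overlapped, and all 6 lower-Rif1 embryos lay below the median of the higher-Rif1 embryos. In 8-cell embryos it was 39.9 to 56.2 CPM (median 47.9) in lower-Rif1 and 57.1 to 142 CPM (median 112) in higher-Rif1 embryos, without overlap. The share of all genes whose 8-cell groups did not overlap was 0.368%, or 41 of 11141. H2afx had a log2 fold change of -1.15 (SE 0.27, edgeR p = 0.00022, adjusted p = 0.494) over both stages, -1.20 (SE 0.39) at the 4-cell and -1.10 (SE 0.39) at the 8-cell stage. It passed the adjusted threshold in DESeq2 (adjusted p = 0.0432), with the 4 lowest against the 4 highest embryos (-1.69, edgeR adjusted p = 0.0284) and with Rif1 ranked by its ratio to ERCC counts (-1.28, edgeR adjusted p = 0.0289). With a block for replicate number it was -0.72 (edgeR adjusted p = 0.924). The value was negative without any 1 of the 24 embryos, and ranged from -1.69 to -0.72 over the 11 alternatives run, with adjusted p from 0.0284 to 0.999.

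Orc6, a subunit of the origin recognition complex that loads the replicative helicase, also had lower values with less Rif1. It was at 56.9 to 99.4 CPM (median 74.9) in lower-Rif1 and 113 to 169 CPM (median 126) in higher-Rif1 8-cell embryos, without overlap. In 4-cell embryos it was at 74.6 to 98.7 CPM (median 87.9) and 77.0 to 179 CPM (median 105), with overlap. The log2 fold change over both stages was -0.58 (SE 0.13, edgeR adjusted p = 0.320), and DESeq2 gave an adjusted p of 0.0367. The value of Orc6 was -0.37 with the ERCC ranking. Orc6 overlaps Vps35 on the opposite strand, and without strand information reads from the overlap could not be separated.

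Ficd encodes an enzyme of the endoplasmic reticulum that adds AMP to the chaperone BiP and removes it. It was at 57.6 to 216 CPM (median 106) in lower-Rif1 and 125 to 360 CPM (median 211) in higher-Rif1 4-cell embryos, and at 83.9 to 176 CPM (median 143) and 156 to 275 CPM (median 230) at the 8-cell stage. The groups overlapped at both stages. Ficd had a log2 fold change of -0.74 (SE 0.18, edgeR adjusted p = 0.494), and of -1.12 with the 4 lowest against the 4 highest embryos. The other 9 genes with the smallest p among those lower with less Rif1 ranged from -1.12 to -0.38 on the log2 scale. They included Best2, a bestrophin chloride channel gene (-1.09, SE 0.28), Ocm, which encodes the calcium-binding protein oncomodulin (-0.87, SE 0.22), the lipin Lpin3 (-1.12, SE 0.31), the E3 ubiquitin ligase Rnf115 (-0.55, SE 0.15) and the RNA polymerase II subunit Polr2c (-0.38, SE 0.11). Their edgeR adjusted p ran from 0.536 to 0.723. Best2 was at -0.43, Ocm at -0.32 and Polr2c at -0.11 with the ERCC ranking, and with ERCC totals as size factors Polr2c was at -0.64. Mon1b, another of these 9 genes, was at -0.75. With the ERCC ranking Mon1b was at -1.06 and was called (edgeR adjusted p = 0.0144).

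Among genes with higher values at less Rif1, Ciapin1 had the smallest p. It encodes a factor for the assembly of cytosolic iron-sulphur proteins. In 4-cell embryos Ciapin1 was at 120 to 180 CPM (median 143) in lower-Rif1 and 61.0 to 152 CPM (median 91.3) in higher-Rif1 embryos. In 8-cell embryos it was at 60.1 to 136 CPM (median 91.4) and 53.8 to 70.6 CPM (median 64.2), where 5 of 6 lower-Rif1 embryos lay above all the others. Over both stages Ciapin1 had 0.63 (SE 0.14, edgeR adjusted p = 0.320; DESeq2 adjusted p = 0.0367). Its value was 0.18 (edgeR p = 0.275) with Rif1 ranked by its ratio to ERCC counts and 0.40 (p = 0.211) with ERCC totals as size factors. Ciapin1 overlaps Coq9 on the opposite strand, with the same limit on its reads.

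Map1lc3a, the autophagosome protein LC3A, was at 469 to 759 CPM (median 543) in lower-Rif1 and 402 to 564 CPM (median 432) in higher-Rif1 4-cell embryos. In 8-cell embryos it was at 575 to 910 CPM (median 709) and 294 to 576 CPM (median 501), and 5 of 6 lower-Rif1 embryos lay above all the others. The log2 fold change over both stages was 0.47 (SE 0.12, edgeR adjusted p = 0.518). It was 0.29 with the ERCC ranking and 0.21 with ERCC totals as size factors. Tle3, a Groucho-family corepressor, was at 12.6 to 51.1 CPM (median 20.8) and 7.15 to 23.2 CPM (median 13.2) at the 4-cell stage. In 8-cell embryos Tle3 was at 35.6 to 75.1 CPM (median 57.0) in lower-Rif1 and 19.1 to 44.9 CPM (median 31.8) in higher-Rif1 embryos. The log2 fold change of Tle3 was 0.86 (SE 0.22, edgeR adjusted p = 0.536), and 0.29 with the ERCC ranking.

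Mef2a, a MADS-box transcription factor gene that overlaps another gene on the opposite strand, was at 7.35 to 44.0 CPM (median 17.2) in lower-Rif1 and 1.80 to 15.0 CPM (median 9.26) in higher-Rif1 4-cell embryos, and at 13.4 to 30.3 CPM (median 19.0) and 2.02 to 15.5 CPM (median 7.03) at the 8-cell stage. Mef2a had a log2 fold change of 1.33 (SE 0.33, edgeR adjusted p = 0.536), and of 0.50 with the ERCC ranking. The other 8 genes in this direction ranged from 0.35 to 1.82 on the log2 scale, with edgeR adjusted p from 0.630 to 0.723. Among them were Igfbp3, an insulin-like growth factor binding protein (1.82, SE 0.50), Arid1b, a BAF remodelling subunit (0.78, SE 0.23), Mettl14, a subunit of the m6A methyltransferase (0.60, SE 0.18), Cox6c of cytochrome c oxidase (0.42, SE 0.12), Elob (0.35, SE 0.11) and Rpl31 of the large ribosomal subunit (0.36, SE 0.11). With the ERCC ranking Igfbp3 was at 1.18 and Mettl14 at 0.36, while Arid1b was at 0.96 and was called (edgeR adjusted p = 0.0330). With ERCC totals as size factors Arid1b was at 0.43, Mettl14 at 0.23, Cox6c at 0.19, Elob at 0.0768 and Rpl31 at 0.0960. At the 4-cell stage 17 genes (0.153%) separated lower-Rif1 from higher-Rif1 embryos without overlap, 3 higher (0.0269%) and 14 lower (0.126%). At both stages in the same direction, 0 genes did (0.00%).

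**Figure D3:**
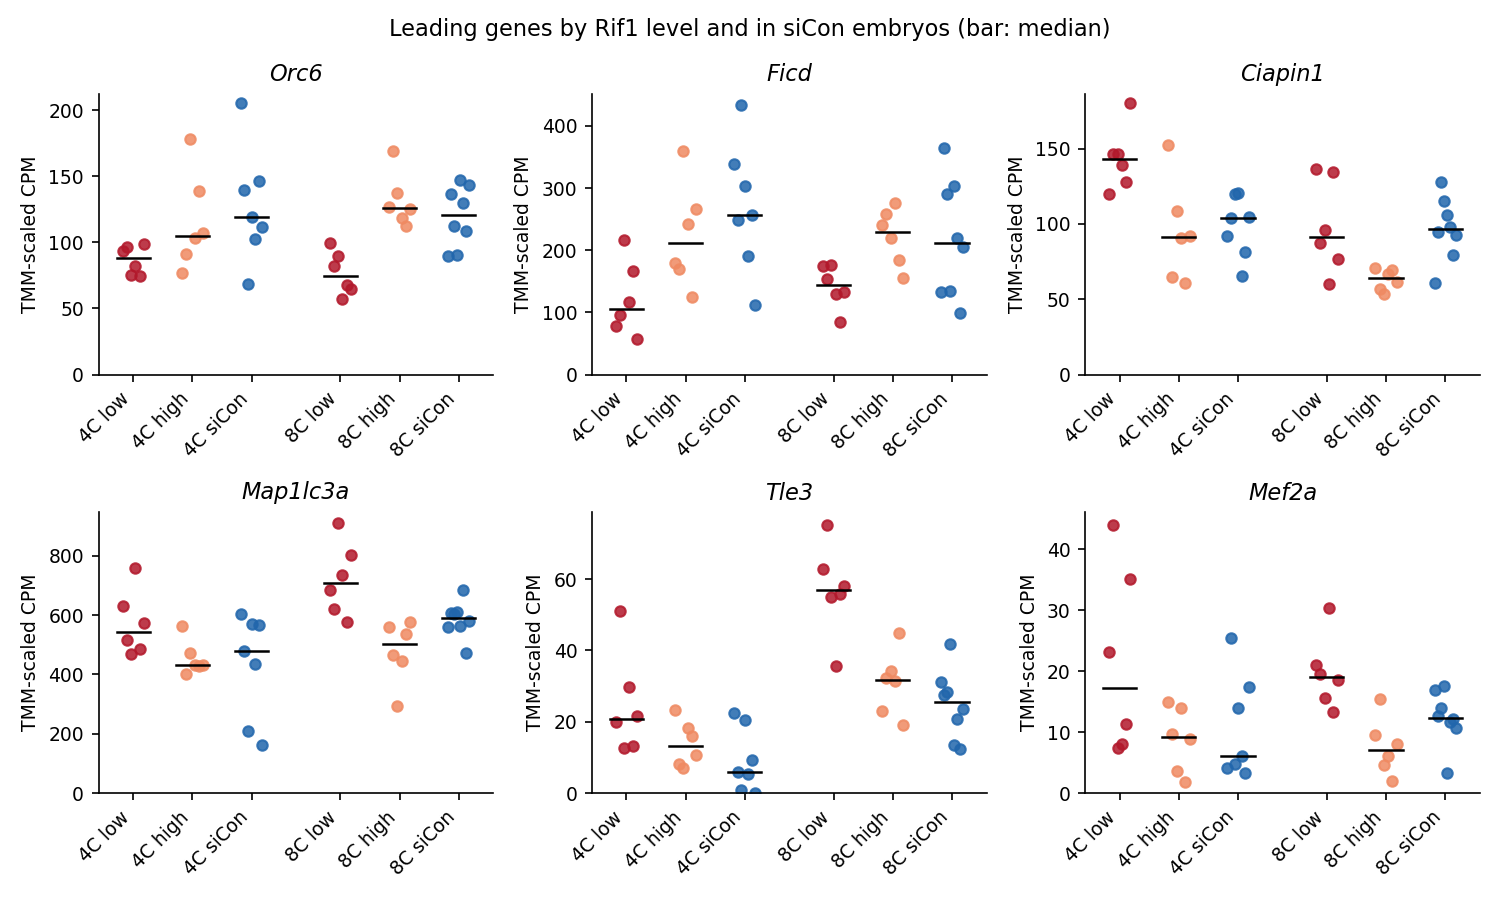
TMM-scaled CPM (vertical axes) of 6 genes from those with the smallest p in the comparison of both stages, H2afx being plotted on its own, 1 point per embryo with the median as a bar, for lower-Rif1 (low), higher-Rif1 (high) and siCon embryos of the 4-cell (4C) and 8-cell (8C) stages. Orc6 and Ficd have lower medians and Ciapin1, Map1lc3a, Tle3 and Mef2a higher medians in lower-Rif1 than in higher-Rif1 embryos at both stages, with overlap everywhere except for Orc6 at the 8-cell stage.

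Within single stages the same test also called no gene. At the 4-cell stage 0 of 11141 genes passed (0.00%), with 487 (4.37%; 1.69% higher and 2.68% lower) below an unadjusted p of 0.05 in edgeR, 2 called by DESeq2 and 0 by limma-voom. Among the named genes with the smallest p there were Bhmt2, a betaine-homocysteine methyltransferase (1.26, SE 0.28), the ubiquitin-conjugating enzyme gene Ube2q2 (1.31, SE 0.31), Cpne3 of the copine family (-3.22, SE 0.75) and the Rac activator Tiam1 (-0.87, SE 0.23). Tiam1 did not overlap between the groups. It was at 17.0 to 33.7 CPM (median 25.1) in lower-Rif1 and 34.6 to 60.5 CPM (median 44.0) in higher-Rif1 embryos. Tiam1 overlaps a gene on the opposite strand. With the ERCC ranking Bhmt2 was at 0.46, Ube2q2 at 0.32 and Cpne3, turned in sign, at 0.17. With a block for replicate number Ube2q2 was at 0.54 and Cpne3 at -2.07. DESeq2 called Bhmt2 (DESeq2 adjusted p = 0.0499). Cpne3 was near the floor of detection at this stage, with 0 to 0.339 CPM in lower-Rif1 and 0.295 to 3.25 CPM in higher-Rif1 embryos.

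At the 8-cell stage 0 genes passed in edgeR (0.00%), with 895 (8.03%) below an unadjusted p of 0.05, 11 called by DESeq2 and 1 by limma-voom. The stage scores of these embryos, given above, were the library measure that differed most, and its part in these values was not tested. Rnf115 was at 44.7 to 78.2 CPM (median 74.4) in lower-Rif1 and 98.1 to 153 CPM (median 125) in higher-Rif1 embryos, without overlap (-0.88, SE 0.19, edgeR adjusted p = 0.307; DESeq2 adjusted p = 0.0202). Obox8, an oocyte-specific homeobox gene, was at 17.6 to 55.5 CPM (median 27.1) and 31.4 to 169 CPM (median 92.0), with overlap (-1.55, SE 0.34, edgeR adjusted p = 0.307). Uchl1, a ubiquitin hydrolase abundant in oocytes, was at 3.19 to 6.67 CPM and 5.90 to 28.4 CPM (-1.63, SE 0.38). Higher values at less Rif1 were seen for Igfbp3 (3.09, SE 0.70), at 2.03 to 19.1 CPM against 0 to 4.64 CPM, for the Rap1 activator Rapgef1 (1.89, SE 0.44) and for the ectonucleoside hydrolase Entpd6 (1.24, SE 0.29). All 3 had an edgeR adjusted p of 0.307. Besides Rnf115, DESeq2 called Igfbp3, Obox8, Rapgef1, Entpd6 and Uchl1 (DESeq2 adjusted p from 0.0157 to 0.0341). With the ERCC ranking Igfbp3 was at 1.52 and Uchl1 at -0.90, while Obox8 was also nearer to 0, and with ERCC totals as size factors Rapgef1 was at 1.13, Entpd6 at 0.78 and Rnf115 at -1.38.

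The difference between the stages in the lower-Rif1 minus higher-Rif1 log2 fold change was also tested, as the 8-cell minus the 4-cell value. In edgeR 0 of 11141 genes passed (0.00%), with 659 (5.92%) below an unadjusted p of 0.05, and DESeq2 called 6 and limma-voom 0. Of the named genes, the smallest p belonged to Ralgds, a guanine exchange factor for Ral, with values of -0.99 at the 4-cell and 1.42 at the 8-cell stage (difference 2.41, SE 0.49, edgeR adjusted p = 0.224). Mier1, a corepressor subunit, had -0.66 and 1.12 (difference 1.78, SE 0.38, edgeR adjusted p = 0.224). Mier1 lay at 5.55 to 17.5 CPM in lower-Rif1 and 19.7 to 26.4 CPM in higher-Rif1 4-cell embryos, and at 20.8 to 40.0 and 10.5 to 20.9 CPM at the 8-cell stage, so that the order of the groups turned. With the ERCC ranking the differences were 1.49 for Ralgds and 0.84 for Mier1. With a block for replicate number that of Ralgds was 0.83 (edgeR p = 0.371). DESeq2 called both genes (DESeq2 adjusted p = 0.0085 for each). For H2afx the difference was 0.09 (SE 0.55).

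A second model used the Rif1 level of every embryo as a number instead of 2 groups. It gave a slope for each gene, in log2 units per 2-fold reduction of Rif1, among all 25 siRif1 embryos, the middle one included, and separately among the 15 siCon embryos, with group means for each stage. In siRif1 embryos 1 of 11843 genes passed in edgeR (0.00844%), and 450 (3.80%) were below an unadjusted p of 0.05, 1.79% of genes higher and 2.01% lower with less Rif1. That gene was H2afx, which fell by 1.03 on the log2 scale for each 2-fold reduction of Rif1 (SE 0.19, edgeR adjusted p = 0.0197). The siRif1 embryos with the least H2afx at the 4-cell stage were number 13 (8.08 CPM), with the least Rif1, then the middle embryo 5 (14.6 CPM) and number 3 (15.9 CPM). Next came higher-Rif1 embryos 9 (16.6 CPM) and 4 (25.3 CPM), below lower-Rif1 embryo 11 (27.3 CPM). At the upper end embryo 7 held 164 CPM, while embryo 10, with the most Rif1, held 69.5 CPM. The 6 lower-Rif1 8-cell embryos lay in a narrow band, 39.9 to 56.2 CPM, across Rif1 levels from 78.1 to 172 CPM, and embryo 7, with the most Rif1, held the most H2afx at 142 CPM.

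The call for H2afx rested on few embryos. It ended without 4-cell embryo 7 (-0.88, edgeR adjusted p = 0.321), 4-cell embryo 3 (-0.996, adjusted p = 0.0652), 4-cell embryo 13 (-0.96, adjusted p = 0.0708) or 8-cell embryo 7 (-1.02, adjusted p = 0.0708), and held without any single one of the other 36 embryos in the model. It also ended with ERCC totals as size factors (-1.31, edgeR adjusted p = 0.161) and with a block for replicate number (-0.85, adjusted p = 0.723), and held in the other 7 alternatives, among them the stage score as a covariate (-1.08, adjusted p = 0.0146) and log2 library size as a covariate (-1.03, adjusted p = 0.0076). The slope was negative in all 9 alternatives and in all 40 fits without 1 embryo. Ficd had the next smallest p of the named genes (-0.68 per 2-fold reduction, SE 0.15, edgeR adjusted p = 0.210), followed by Ciapin1 (0.44, SE 0.10, adjusted p = 0.363).

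**Figure D4:**
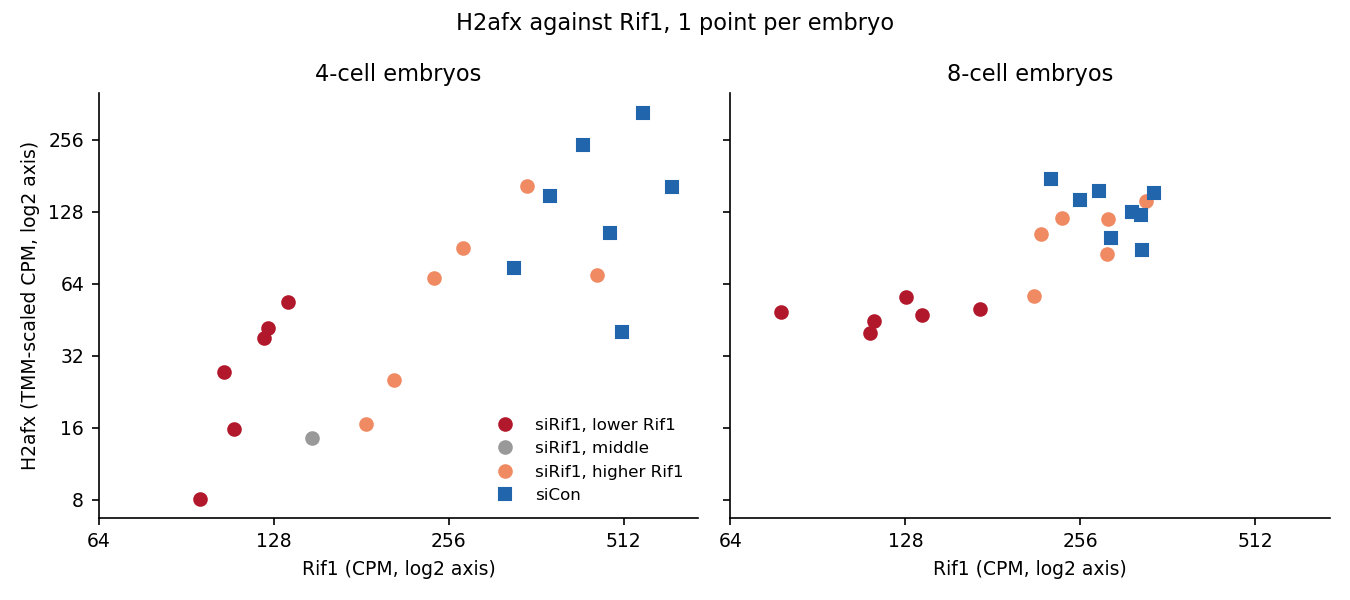
H2afx in TMM-scaled CPM (vertical axis, log2 scale) against Rif1 in CPM (horizontal axis, log2 scale), 1 point per embryo, in 4-cell and 8-cell embryos. Among siRif1 embryos (circles) H2afx runs from 8.08 to 164 CPM at the 4-cell stage and from 39.9 to 142 CPM at the 8-cell stage, lower where Rif1 is lower, and siCon embryos (squares) lie at 40.1 to 332 and 88.6 to 176 CPM.

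Among siCon embryos the slope on Rif1 was called for 0 of 11843 genes in edgeR (0.00%), with 227 (1.92%) below an unadjusted p of 0.05 and 0 called by DESeq2 or limma-voom. Rif1 varied less there, from 332 to 620 CPM and from 228 to 342 CPM. H2afx had a slope of -0.35 (SE 0.68), and the siRif1 minus siCon difference of its slopes was -0.68 (SE 0.70, edgeR p = 0.33), so the slopes were not shown to differ. Of the difference of slopes, 0 genes passed (0.00%; 246 below an unadjusted p of 0.05 in edgeR, 0 called by DESeq2 and 0 by limma-voom). The siCon slopes of named genes with the smallest p were those of Plbd1 (-2.43, SE 0.65), a phospholipase B-like lysosomal gene, Mat2b (-1.01, SE 0.31), a regulatory subunit of methionine adenosyltransferase, and Pdzd3 (3.36, SE 1.07). Without siCon 4-cell embryo 2 the slope was 0.73 for Pdzd3 and -1.56 for Plbd1, and without siCon 4-cell embryo 1 that of Pdzd3 was 5.69. In siRif1 embryos the slopes of Plbd1, Mat2b and Pdzd3 were -0.12 (SE 0.18), -0.03 (SE 0.09) and -0.30 (SE 0.34).

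A further model set each group of siRif1 embryos beside the controls of its stage. The lower-Rif1 and higher-Rif1 values share those controls. At the 4-cell stage edgeR called 15 of 12098 genes (0.124%) in lower-Rif1 embryos, 5 higher and 10 lower than in controls, and 0 (0.00%) in higher-Rif1 embryos, where 848 genes (7.01%) were below an unadjusted p of 0.05, DESeq2 called 19 and limma-voom 0. A call in one group and not in the other does not show that the groups differ, and the test of that difference, given above, called 0 genes. H2afx was lower than in controls in lower-Rif1 4-cell embryos (-2.36, SE 0.41, edgeR adjusted p = 0.0132), where 4 of 6 embryos lay below all controls. It was at -1.16 (SE 0.39, adjusted p = 0.423) in higher-Rif1 embryos. Controls held 40.1 to 332 CPM (median 148). The share of all genes with embryos below all controls was not counted, so the 4 of 6 is a description only. The stage score of the 4-cell controls was -2.12 to -0.65, against -0.75 to -0.0013 in lower-Rif1 and -0.92 to -0.0894 in higher-Rif1 embryos, and its part in these values was not tested. The genes of this score were chosen by their difference between stages in these same controls. That choice pulls the control scores of the 2 stages apart, so control and siRif1 scores are not directly comparable.

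Gpr137b, which encodes a lysosomal membrane protein and was named after its values were seen, was higher than in controls (0.80, SE 0.15, edgeR adjusted p = 0.0181). Its value in higher-Rif1 embryos was 0.68 (SE 0.15, adjusted p = 0.161), and lower-Rif1 minus higher-Rif1 was 0.11 (SE 0.14). Its call held in 34 of 39 fits without 1 embryo and ended without siCon 4-cell embryos 6 or 7 or siRif1 4-cell embryos 11, 12 or 13, where edgeR adjusted p was at most 0.0620. It also ended when size factors came from ERCC totals (0.96, edgeR adjusted p = 0.996), with no filter on low counts (0.82, adjusted p = 0.0639) and with a block for replicate number (0.67, adjusted p = 0.442), 3 of the 9 alternatives. Orc6 was at -0.57 (SE 0.19) and -0.16 (SE 0.19), Ficd at -1.16 (SE 0.29) and -0.30 (SE 0.28), and Tle3 at 1.43 (SE 0.48) and 0.61 (SE 0.48). The count of 15 was 0 with ERCC totals as size factors, 104 in DESeq2, 2 in limma-voom and 2 without siCon 4-cell embryos 3 and 7. It was 0 to 3 without any 1 of siCon 4-cell embryos 3, 6 and 7, of siRif1 4-cell embryos 1, 2, 3, 4, 8, 10, 11, 12 and 13, of siCon 8-cell embryos 1, 2, 3, 4, 6, 7 and 8, or of siRif1 8-cell embryos 2 to 12. It was 9 without siCon 4-cell embryo 4, 7 without embryo 5, 36 without embryo 2, 72 without embryo 1, and 14 to 20 without any 1 of the remaining embryos. H2afx kept its call in 38 of the 39 fits without 1 embryo, and lost it without siRif1 4-cell embryo 13 (-2.17, edgeR adjusted p = 0.0526). It also lost it in the same 3 of 9 alternatives, at -2.18 (edgeR adjusted p = 0.240) with ERCC totals, -2.35 (adjusted p = 0.0598) with no filter and -2.29 (adjusted p = 0.296) with the block.

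At the 8-cell stage 0 of 12098 genes passed in lower-Rif1 (0.00%) and 0 in higher-Rif1 embryos (0.00%) by edgeR. Below an unadjusted p of 0.05 were 443 (3.66%) and 458 (3.79%) genes, DESeq2 called 3 and 0, and limma-voom 1 and 0. H2afx was at -1.46 (SE 0.39, edgeR adjusted p = 0.828) in lower-Rif1 embryos, all 6 of which lay below all controls, and at -0.35 (SE 0.37) in higher-Rif1 embryos, of which 2 of 6 did. Orc6 was at -0.63 (SE 0.18), with 5 of 6 lower-Rif1 embryos below all controls, and at 0.14 (SE 0.18). Ciapin1 did not follow this order. Its lower-Rif1 embryos were near the controls (0.03, SE 0.18) and its higher-Rif1 embryos were at -0.61 (SE 0.19). The share of all genes with embryos below all controls was not counted here either. The counts for H2afx and Orc6 are therefore a description only.

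The 22 gene lists are given by counts and medians of the lower-Rif1 minus higher-Rif1 log2 fold change over both stages. In edgeR no list member was called in this comparison, and among the 4 calls of DESeq2 were Orc6 and H2afx. Of all genes, 2.72% were higher and 2.67% lower at an unadjusted p below 0.05 in edgeR over both stages, and the counts below are read against these shares. Among the partners of Rif1 (phosphatase 1 subunits, 53BP1, the shieldin complex and others), 0 of 11 tested members passed an unadjusted p of 0.05 and the median was 0.13. Dynll1, a dynein light chain that binds 53BP1, had the smallest p (-0.19, SE 0.13).

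Genes of origin licensing and firing had a median of -0.09, with 10 of 28 members above 0 and 2 lower at an unadjusted p below 0.05, Orc6 and Cdc45. Cdc45, a part of the replicative helicase, was at -0.53 (SE 0.17) over both stages, -0.23 (SE 0.23) at the 4-cell and -0.83 (SE 0.23) at the 8-cell stage. At the 8-cell stage the list's median was -0.22, with 6 of 28 members lower and 1 higher at an unadjusted p below 0.05, where 3.81% of all genes were lower and 4.23% higher. The helicase subunits Mcm6 (-0.77) and Mcm2 (-0.46) and the origin recognition subunit Orc4 (-0.53) were among the lower ones. At the 4-cell stage the median was 0.05 and 1 member was lower.

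Genes of the replication fork and of nucleotide supply had a median of -0.12, with 8 of 29 members above 0, 1 higher (Dut, which hydrolyses dUTP, 0.40, SE 0.14) and 3 lower at an unadjusted p below 0.05, the polymerase subunit Pole (-0.38), the primase subunit Prim2 (-0.44) and the clamp loader subunit Rfc1 (-0.26). Genes of DNA damage and break repair had a median of -0.10, with 9 of 36 above 0 and 3 lower, H2afx, the recombination ATPase gene Rad54l (-0.51) and the ligase Lig4 (-0.67). Their median was 0.0047 at the 4-cell stage (19 of 36 above 0) and -0.19 at the 8-cell stage (9 of 36). Genes of mitosis and the spindle had a median of -0.06, with 6 of 32 above 0 and 2 lower, the phosphatase Cdc25b (-0.66, SE 0.25) and the cyclin Ccnb2 (-0.35). The stages differed in sign for this list, with medians of 0.11 at the 4-cell (21 of 32 above 0) and -0.24 at the 8-cell stage (4 of 32). Cdc25b was at -0.41 without siRif1 4-cell embryo 7 and at -0.30 with a block for replicate number. The p53 targets had a median of 0.10, with 17 of 27 above 0 and 1 higher, the fructose bisphosphatase Tigar (0.36, SE 0.13). Apoptosis regulators had a median of -0.13, with 6 of 19 above 0, 1 higher and 1 lower at an unadjusted p below 0.05, and the BH3-only gene Bmf was at 1.08.

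Cytosolic ribosomal protein genes had a median of 0.16, with 70 of 78 members above 0 and 14 higher at an unadjusted p below 0.05, led by Rpl31 (0.36), Rps29 (0.33) and Rps27 (0.30). Their medians were 0.17 at the 4-cell and 0.16 at the 8-cell stage. Nuclear genes of oxidative phosphorylation had a median of 0.10, with 51 of 74 above 0 and 9 higher, among them Cox6c (0.42), Cox7c (0.30) and the ATP synthase subunit Atp5g3 (0.45). This list's median was 0.17 at the 4-cell stage (59 of 74 above 0) and 0.04 at the 8-cell stage (40 of 74). Mitochondrially encoded genes had a median of 0.19, with 14 of 15 above 0 and 0 at an unadjusted p below 0.05, with medians of -0.03 at the 4-cell and 0.40 at the 8-cell stage. Scaling by ERCC totals moved the median of all genes from -0.00052 to -0.24, and the 3 list medians became -0.08, -0.17 and -0.06, still above that of all genes. With the stage score as a covariate they were 0.03, 0.02 and 0.27, and with Rif1 ranked by its ratio to ERCC counts 0.06, 0.10 and 0.59. Members of a list were measured in the same libraries, so their counts are not independent observations. Ribosomal protein genes, and the Obox, Khdc1 and Pramef families, also have near-identical copies, so that some reads cannot be assigned to a single gene.

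The lists tied to developmental stage and lineage had medians near 0, apart from the 2-cell genes. Maternal oocyte transcripts were at 0.04, with 20 of 35 above 0 and 1 higher (Khdc1a, 0.63, SE 0.23, and 0.40 without siRif1 8-cell embryo 6). Trophectoderm and compaction genes were at 0.05, with 19 of 33 above 0 and 0 at an unadjusted p below 0.05, and Tead4, the transcription factor of the trophectoderm programme, was at 0.30 (SE 0.16). Pluripotency genes were at 0.11, with 14 of 23 above 0 and 2 higher, Tfcp2l1 (0.82, SE 0.32) and Pou5f1 (0.38). Primitive endoderm genes were at 0.12, with 5 of 9 above 0, 1 higher (Fgfr1, 0.53) and 1 lower (the laminin chain Lamc1, -0.90, SE 0.36). The 2-cell genes had a median of -0.29, with 1 of 14 tested members above 0 and 0 at an unadjusted p below 0.05. That median was 0.04 at the 8-cell and -0.89 at the 4-cell stage, where 1 of 14 was lower and 0 higher at an unadjusted p below 0.05. Pramef12 had the smallest p over both stages (-0.46, SE 0.30). It was at -0.17 without siRif1 4-cell embryo 9 and, turned in sign, at 0.17 with the ERCC ranking.

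Genes of heterochromatin and silencing had a median of 0.02 (16 of 30 above 0, 0 at an unadjusted p below 0.05), and Dnmt3l, a cofactor of DNA methyltransferases, was at 0.44 (SE 0.23). Paternally expressed imprinted genes had 0.02 (8 of 15), with Slc38a4, an amino acid transporter, at 0.74 (SE 0.42). In the small RNA pathway, through which an siRNA acts, the median was 0.01 (10 of 17 above 0) and 2 members were higher at an unadjusted p below 0.05. They were Ago2, the nuclease guided by siRNAs, at 0.48 (SE 0.15), and Tarbp2, at 0.35. Interferon-stimulated genes, which double-stranded RNA can induce, had 0.06 with 4 of 6 above 0, and B2m was at 0.15 (SE 0.18). Nucleolar genes had -0.02 (13 of 27 above 0), with Nop10 at 0.27 (SE 0.13). Heat shock and unfolded protein genes had -0.02 (10 of 25), with 2 members higher and 1 lower at an unadjusted p below 0.05. The stress transcription factor Ddit3 was at -0.996 (SE 0.41). Glycolysis genes had -0.10 (9 of 21), with Ldhb of lactate dehydrogenase at 0.57 (SE 0.28), and at the 8-cell stage 4 of 21 were lower and 1 higher at an unadjusted p below 0.05, against 3.81% and 4.23% of all genes, the lower ones including Eno1 (-1.22) and the glucose transporter Slc2a3 (-0.82). Several list members named above moved with the ERCC ranking. Tfcp2l1 moved to 0.26, Lamc1 to -0.43, Slc38a4 to 0.0820, Ddit3 to -0.36 and Nop10 to 0.12. Ldhb moved to 0.87 and Dnmt3l to 0.88, where Dnmt3l was called (edgeR adjusted p = 0.0289). Dynll1, Tigar and Tead4 turned in sign. With ERCC totals Ago2 was at 0.19 and Dut at 0.0919. B2m was at 0.0743 without siRif1 8-cell embryo 4, 0.0978 without embryo 5 and 0.24 without embryo 12 of that stage.

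**Figure D5:**
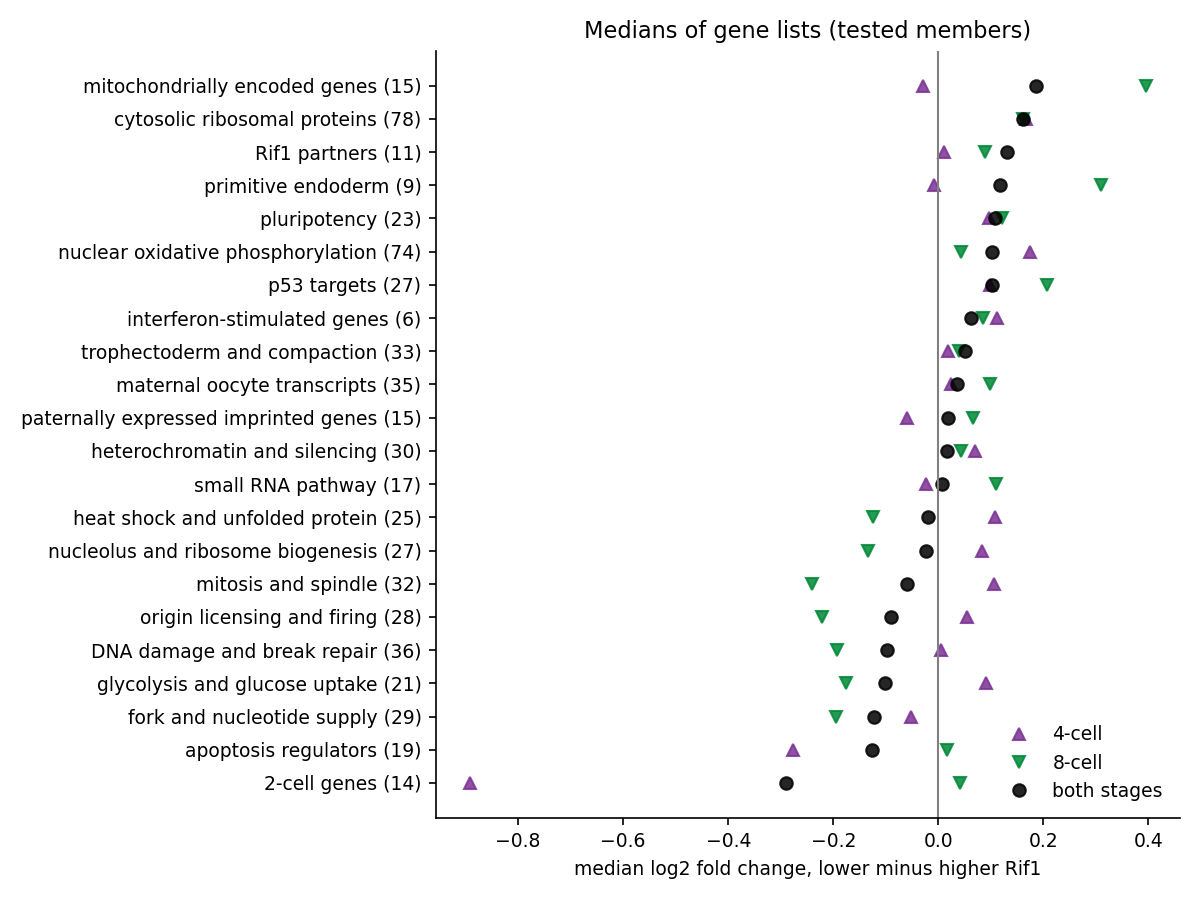
Median log2 fold change of lower-Rif1 minus higher-Rif1 embryos (horizontal axis) for the tested members of each of 22 gene lists, their number in parentheses, at the 4-cell stage, the 8-cell stage and over both, with a grey line at the median of all genes. The medians over both stages, relative to -0.00052 for all genes, run from -0.29 (2-cell genes) to 0.19 (mitochondrially encoded genes), and for several lists the stage medians lie on opposite sides of 0.

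Markers of the cells that surround the zygote or could come with it were low in all groups. The 16 cumulus and granulosa markers summed to 4.69 to 12.5 CPM in lower-Rif1 and 7.45 to 20.6 CPM in higher-Rif1 4-cell embryos, and to 5.31 to 20.7 and 1.85 to 28.3 CPM at the 8-cell stage. Of these 16 markers, 3 passed the filter on low counts, 3 had no count in any siRif1 embryo and 0 were below an unadjusted p of 0.05. The 8 blood cell markers summed to at most 40.3 CPM in any siRif1 embryo compared, and 5 of them had no count in any siRif1 embryo.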

How the data were processed

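Gene counts from 40 single-embryo SMART-seq2 libraries were analysed. The authors deposited raw read counts per gene, made with STAR 2.7.6a on GRCm38 per the submitters' processing notes; the gene annotation was not given in the sources used here. The unstranded counts were used, because the strand columns held 49.7% to 51.2% on 1 strand. Of 55487 mouse entries, 55227 took names and positions from GENCODE M21. The 92 ERCC entries and the 4 summary entries stayed out of library sizes. Counts come from reads without molecular identifiers.

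Genes were kept by filterByExpr (minimum count 10) and tested with edgeR 4.0.16 (TMM, robust quasi-likelihood, Benjamini-Hochberg over all genes tested, threshold 0.05), with 3 models: 24 embryos by Rif1 group and stage (11141 genes), all 40 by Rif1 slope (11843 genes), and the 24 with siCon (12098 genes). SE is the model's, and per-embryo log2 CPM values took a prior count of 2. Scripts were tested on simulated data. DESeq2 1.42.0, limma-voom (limma 3.58.1) and the alternatives in the closing section were run beside them. Library measures used exact permutation tests (scipy 1.17.1).

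The embryos, gene lists and named genes were chosen with earlier results of these data known. Named genes were the 12 with the smallest p in each direction over both stages, among genes whose mean log2 CPM was 3 or more and whose symbol is a plain name, the 3 in each direction within each stage and for the siCon slope, the 3 with the smallest p for the difference between stages, and the member of each list with the smallest p. Further list members are named for an unadjusted p below 0.05, and these and Gpr137b were chosen after their values were seen. Not every gene so taken is printed. Some results are not reported here.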

Additional observations from a re-analysis of the deposited data

Results flagged for a closer look

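In groups of 6 embryos, a value far from the rest of its group was found in 9 of 132 groups examined, and chance gives about 1 in 20. For the genes, the values are log2 CPM. Cox6c was at 7.19 in 4-cell higher-Rif1 embryo 10, against 7.62 to 7.85 in the others of its group. Elob was at 6.42 in 4-cell higher-Rif1 embryo 9, against 6.93 to 7.21, and Rpl31 at 7.68 in the same embryo, against 8.16 to 8.40. Rnf115 was at 5.06 in 4-cell lower-Rif1 embryo 13, which had the least Rif1 of its stage, against 6.20 to 6.39. Lcor, a corepressor of nuclear receptors, was at 7.47 in 8-cell lower-Rif1 embryo 9, which had the least Rif1 of all siRif1 embryos, against 6.37 to 6.76. Lcor was lower with less Rif1 over both stages (-0.56, SE 0.16, edgeR adjusted p = 0.723), so this embryo went against the direction of its group.

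Among library measures, 4-cell higher-Rif1 embryo 6 had 8890551 mouse counts, against 2126150 to 4267813, and 19795 genes with a count, against 17155 to 18109. In 8-cell lower-Rif1 embryo 2, mouse counts were 4417902, against 2691509 to 3313210. In the same embryo 8.59% of mapped reads were assigned to no gene feature, against 14.2% to 16.7%. What these differences come from was not tested.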

How the results depend on the processing

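Over both stages the 0 calls became 4 in DESeq2, 86 with Rif1 ranked by its ratio to ERCC counts and 1 with the 4 lowest against the 4 highest embryos. They stayed 0 to 0 without any 1 embryo. At the 4-cell stage they became 3 with no filter on low counts, 2 in DESeq2 and 0 to 1 without 1 embryo (1 without siRif1 4-cell embryo 11). At the 8-cell stage they became 11 in DESeq2, 1 in limma-voom and 8 with the ERCC ranking, and stayed 0 to 0 without 1 embryo. The difference between stages gave 4 with no filter and 6 in DESeq2. The 1 gene called by slope in siRif1 embryos became 0 with ERCC size factors, 7 with no filter, 2 in DESeq2, 2 without siCon 4-cell embryos 3 and 7, and 0 to 2 without 1 embryo (0 without siRif1 4-cell embryos 3, 7 or 13 or 8-cell embryo 7, 2 without siRif1 4-cell embryo 8). The siCon slope stayed at 0 to 0, and the difference of slopes gave 2 with no filter. H2afx, at -1.03, was at -1.31 with ERCC size factors and -1.15 to -0.88 without 1 embryo.

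Against siCon, the 15 genes of lower-Rif1 4-cell embryos became 0 with ERCC size factors, 3 with no filter, 104 in DESeq2, 2 in limma-voom, 6 with the ERCC ranking, 2 without siCon 4-cell embryos 3 and 7, and 0 to 72 without 1 embryo. The 0 of higher-Rif1 4-cell embryos became 19 in DESeq2 and 0 to 20 without 1 embryo (20 without siCon 4-cell embryo 1). In lower-Rif1 8-cell embryos they became 3 in DESeq2, 1 in limma-voom, 2 without siCon 4-cell embryos 3 and 7, and 0 to 3 without 1 embryo (3 without siRif1 8-cell embryo 4). In higher-Rif1 8-cell embryos they stayed at 0 to 0 without 1 embryo.

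Of 2380 alternative values of 67 results on named genes, 2374 kept their direction. With the ERCC ranking the sign turned for Dynll1 (0.0520), Tigar (-0.0317), Pramef12 (0.17), Tead4 (-0.17) and, at the 4-cell stage, Cpne3 (0.17). It also turned for the difference in 8-cell mouse counts (-196887). At the 4-cell stage it turned for mitochondrial share (1.30 percentage points), ERCC share (1.66) and mapped reads assigned to no gene feature (0.856). The 4-cell share of the 50 most abundant genes (4.49) and log2 mouse to ERCC ratio (-0.75) turned as well. With 4 against 4 embryos the 4-cell mitochondrial share (0.442), ERCC share (0.997), share of the 50 most abundant genes (3.52) and log2 ratio (-0.38) turned. With ERCC size factors B2m turned (-0.0683) and the median of all genes moved to -0.24 over both stages and -0.48 at the 8-cell stage. The causes were not tested.

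The labels do not say whether equal replicate numbers mark a shared litter or injection day. Between siRif1 stages, same-numbered embryos had correlations from -0.346 to 0.266, with 3 of 12 over 0.1. These were not set against differently numbered embryos, so they do not decide whether the numbers pair the embryos. With a replicate block the slope called 0 genes (H2afx -0.85), lower-Rif1 4-cell embryos 0 and higher-Rif1 8-cell embryos 1. Leaving out embryos with 3 or fewer Snrpn counts was not run, because no embryo met it. The fewest were 4 and 8 counts, in siCon 4-cell embryos 3 and 7, against 151 to 222 in the other 4-cell controls. These embryos also had the lowest stage scores of the 4-cell controls, -2.12 and -2.08.

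Rif1 itself was read from 232 to 2406 counts in the 24 embryos. The groups hold 6 embryos a stage and differ about 2-fold in Rif1, and genes near the floor of detection, such as Cpne3, rest on few reads. ERCC counts were used as deposited.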
